A study of Mus musculus with 12 samples.

Results

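The 38 genes described here encode the factors that start and elongate protein synthesis. They were listed by name and role, not by a threshold on a measured value, from 22416 mouse genes with footprint counts. Initiation is covered by 30 of them: 8 genes of the eIF1, eIF2, eIF5 and eIF6 group, 12 subunits of eIF3, and 10 genes of the eIF4 group together with poly(A)-binding protein. Elongation is covered by 6 genes (Eef1a1, Eef1b2, Eef1d, Eef1g, Eef2 and Eif5a). The list also holds Etf1, the release factor that ends translation at stop codons, and Tpt1, a small abundant protein whose mRNA is a classic target of growth control.

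Single epidermal cells of back skin were sorted into wells of 12 plates, and the ribosome-protected fragments of each well were sequenced and counted per gene. The mice were female C57BL/6 and all received cycloheximide, an elongation inhibitor that holds ribosomes on their mRNAs, before the skin was taken. The old group was represented by the animals P662, P722 and P758, and the young group by P57, P59 and P60, where P stands for postnatal day. Plates of the same age and day were taken to come from the same animal, which the labels do not state, and no genotype, transgene or further treatment is given. A plate of Sca-1-negative cells mixed from P57 and P679, and a P758 plate that tested nucleases, entered no comparison between groups.

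During initiation the eIF4F complex (the cap-binding protein eIF4E, the scaffold eIF4G and the helicase eIF4A) recruits the mRNA, while eIF3 and eIF2 bring the small ribosomal subunit and the initiator tRNA. During elongation eEF1A delivers aminoacyl-tRNAs, its exchange factors recharge it with GTP, eEF2 moves the ribosome along by codons, and eIF5A relieves stalling. Several of these mRNAs start with a 5′ terminal oligopyrimidine (TOP) tract, a cytidine followed by a run of pyrimidines, and their translation depends on mTORC1 and LARP1. Epidermal stem cells of the basal layer divide, leave the basement membrane and differentiate in the spinous layer, with marked changes in protein synthesis.

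Start-site sequence is shown for genes on which the comparison between basal wells turns, because TOP tracts lie at the very start of an mRNA. The windows run 15 bases to either side of the RefSeq transcript start in GRCm38.p6, on the transcribed strand. Capitals mark a pyrimidine run, defined as a C followed by at least 4 further letters that are C or T. Eif3f, Eef1a1, Eif4b and Rack1 (a ribosomal scaffold protein outside the 38) hold such a run. The windows of Eef2, Eef1b2, Eif3a, Eif3d and Eif4h hold none.
Eif3f, chr7:108934400-108934429, plus strand: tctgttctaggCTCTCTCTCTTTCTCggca
Eef1a1, chr9:78481710-78481739, minus strand: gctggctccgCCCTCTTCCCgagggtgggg
Eif4b, chr15:102073758-102073787, plus strand: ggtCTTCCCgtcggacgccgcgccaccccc
Rack1, chr11:48800345-48800374, plus strand: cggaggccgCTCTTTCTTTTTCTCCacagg
Eef2, chr10:81176616-81176645, plus strand: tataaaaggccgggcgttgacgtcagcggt
Eef1b2, chr1:63176816-63176845, plus strand: tggacctgcagttccgccggaagtagccga
Eif3a, chr19:60790679-60790708, minus strand: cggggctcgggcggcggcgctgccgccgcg
Eif3d, chr15:77970810-77970839, minus strand: gtggtagggccatttacgacagcgctggtc
Eif4h, chr5:134639395-134639424, minus strand: gtgcgacttgcgatcaggcagcgcggcgga

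Windows were found for 28 of the 38 genes, 34 in all where a gene has several starts, and 8 of the 34 held a run, against 36.4% of 32851 windows of all genes. Runs of at least 8 letters were in 5 of the 34, against 9.26% of all windows. Only the transcribed strand was searched. The match describes these letters and not a working TOP tract, and an absent run says only that this window lacks it, since a tract sits at the exact start used in the cell. Of the 12 genes taken as TOP mRNAs from general knowledge (Eef1a1, Eef1b2, Eef1d, Eef1g, Eef2, Eif3a, Eif3e, Eif3f, Eif3h, Eif4b, Pabpc1 and Tpt1), 7 had a window and 3 of these a run.

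Depth was very uneven. Wells with at least 100 counts numbered 1906 of 1924 and held 3382018 counts, of which P60 gave 2384294, P758 896688, P662 70549, P722 12886, P59 12371 and P57 5230. A footprint count was thus worth 0.419 CPM (counts per 1000000 counts) in P60 and 1.12 in P758, but 14.2 in P662, 77.6 in P722, 80.8 in P59 and 191 in P57, so a 0 in the shallow animals is weak evidence of absence. Basal keratinocytes were represented by 746 wells, spinous by 372 and cycling by 67. The classes came from clusters built without these genes and without ribosomal protein genes. Markers of T cells made up at most 0.096% of an animal's counts, those of Langerhans cells at most 0.036%, and those of fibroblasts, melanocytes and endothelial cells less. The 384 cell barcodes are well positions, and 383 of them recur in at least 2 plates. A footprint level joins mRNA abundance with translation, no matched mRNA was measured, and in summed wells fewer cells of a type and fewer footprints per cell cannot be told apart.

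The 38 genes together took 1.05, 0.900 and 0.995% of all footprint counts in the old animals P662, P722 and P758, and 1.24, 1.04 and 0.902% in the young animals P57, P59 and P60. These ranges overlap. All 38 had at least 1 count in P758 and P60, 36 in P662, 32 in P59, 28 in P722 and 24 in P57, and 18 had a count in all 6 animals. Eef1g, an eEF1B subunit that anchors the exchange complex, had counts only in the 2 deepest animals, 62 in all. Eif4e (41 counts), Eif4ebp1 (38 counts) and Eif2s3x (51 counts) were also too sparse to follow across animals. Levels of different genes were not ranked, because coding lengths were not used here.

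Initiation factors summed to 0.678, 0.528 and 0.636% of counts in the old animals and to 0.860, 0.687 and 0.599% in the young, a mean of 0.614 ± 0.0774% (SD, n = 3) against 0.715 ± 0.133% (SD, n = 3). The old and young values overlap. The 12 eIF3 subunits, the scaffold on which the initiation complex is built, took 0.283, 0.264 and 0.273% in old and 0.382, 0.162 and 0.277% in young animals, means of 0.273 and 0.274%. The eIF4 group with Pabpc1 took 0.320, 0.217 and 0.285% in old and 0.402, 0.380 and 0.253% in young animals, again with overlap. For eIF3 the highest and the lowest animal were P57 and P59, the libraries with the fewest counts.

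Elongation factors took 0.347, 0.334 and 0.330% in the old animals and 0.306, 0.331 and 0.281% in the young, a mean of 0.337 ± 0.0089% (SD, n = 3) against 0.306 ± 0.0251% (SD, n = 3). P59 lies just above P758, so the groups touch. They did not overlap, the old animals being higher, when keratin and mitochondrial genes were left out of the total (means of 0.374 and 0.335%) or when wells of every depth were kept (0.336 and 0.30%). Per 100 initiation counts there were 51.3, 63.2 and 51.9 elongation counts in the old animals and 35.6, 48.2 and 47.0 in the young. By animal the old values were all higher. By plate they overlapped, since the old P662 plate Old7 had 44.6 while the young P60 plate Young3 had 50.3. Footprints of immediate early genes, which can rise with handling of cells, took 2.42, 0.458 and 1.29% in the old and 0.153, 2.14 and 0.401% in the young animals. Mitochondrially encoded genes took 0.407, 0.411 and 0.454% in old and 0.210, 0.566 and 0.331% in young. The ratio also ran with the depth of a well: with wells ranked by depth and cut into 3 sets, it was, from shallow to deep, 59.3, 53.9 and 43.6 in P60 and 69.7, 61.5 and 47.4 in P758, a range wider than the difference of 11.9 between the mean old and young animal. Among basal wells alone it did not fall steadily, at 52.2, 59.4 and 39.8 in P60 and 53.9, 66.0 and 49.9 in P758. The part of depth, immediate early genes, mitochondrial genes or the mix of cell clusters in the age difference was not tested.

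**Figure D1:**
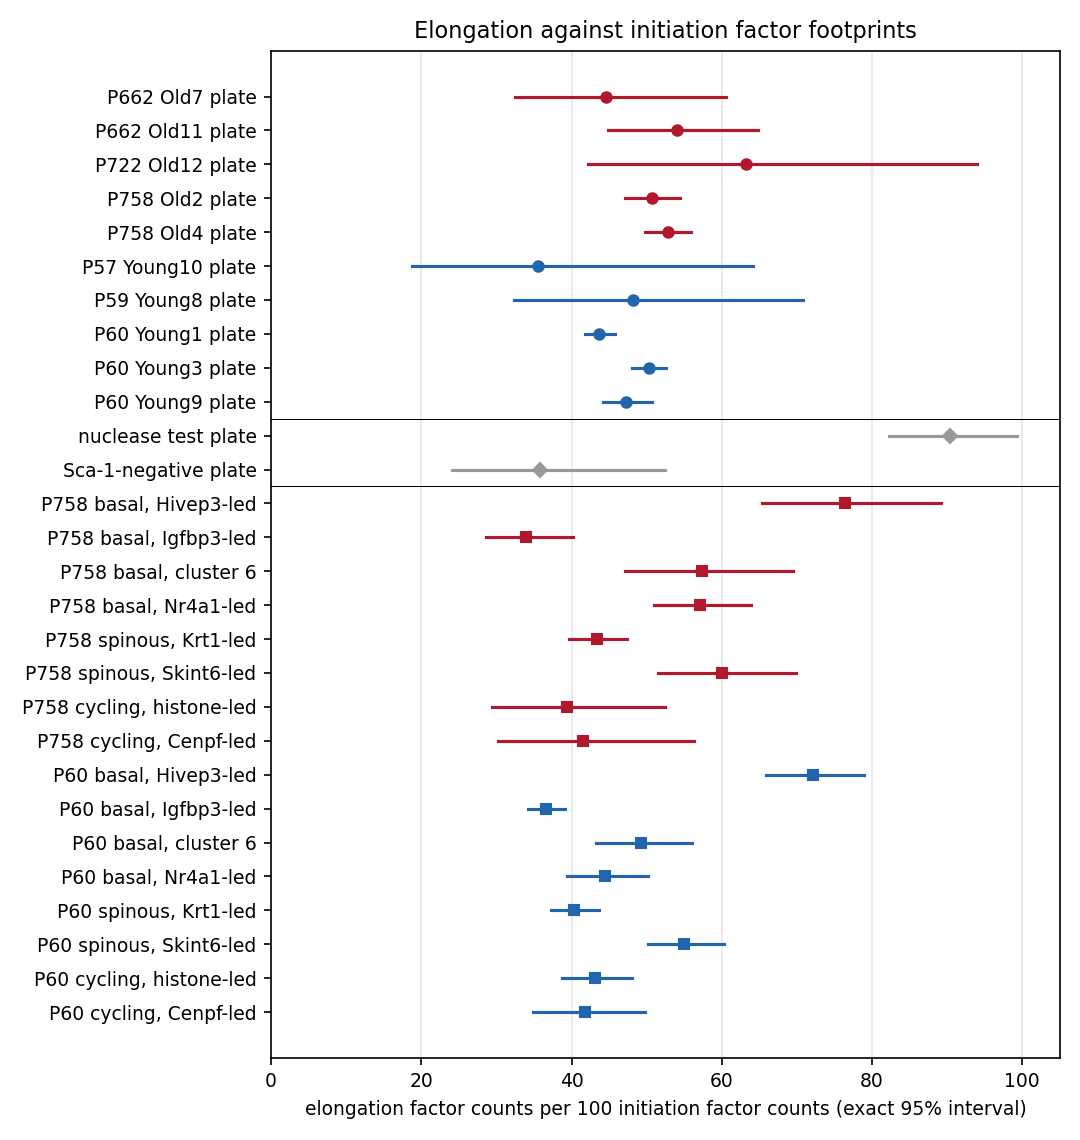
Elongation-factor counts per 100 initiation-factor counts, by plate and by cluster, with the nuclease test plate and the Sca-1-negative plate in grey. Old and young plates overlap. Summed per animal, which is not drawn, the 3 old animals lie between 51.3 and 63.2 and the 3 young between 35.6 and 48.2. The Hivep3-led and Igfbp3-led basal clusters lie farther apart, at 72.2 and 36.6 in P60.

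Old and young animals were compared gene by gene, the question in the study's title. With edgeR's quasi-likelihood test on counts summed per animal, 0 (0%) of the genes that passed the filter on low counts differed at a Benjamini-Hochberg adjusted p under 0.05, with 25 at an unadjusted p under 0.05. DESeq2 also called 0. Of the 38 factors 11 were tested and 0 were called, none of them at an unadjusted p under 0.05. Their median log2 difference, old minus young, was 0.21, against 0.03 over all tested genes, and 8 of the 11 were positive, as were 385 of all tested genes against 337 negative. All 4 tested eIF3 subunits and all 3 tested elongation factors were positive, and 1 of 4 in the eIF4 group. With 3 animals an age, an exact permutation test of a gene alone could not go below 0.10. In simulated data the edgeR test of this comparison recovered 14% of 2-fold changes.

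Eef2, the translocase, had 2254, 1940.1 and 2029.7 CPM in the old and 1912, 1778 and 1763 CPM in the young animals, a mean of 2075 ± 162 against 1818 ± 82.1 (SD, n = 3 each). Every old animal was above every young animal, though P722 and P57 lie close and rest on 25 and 10 counts. The fitted log2 difference was 0.27 (SE 0.26, 95% interval -0.30 to 0.84), adjusted p = 0.998 in edgeR's quasi-likelihood test. Groups that did not overlap were seen for 2 of the 38 factors, both among the 11 tested, and for 8.59% of all tested genes. Eif4b, the cofactor of the eIF4A helicase, was the other: 312, 0 and 288 CPM in old and 956, 404 and 312 CPM in young animals, with P60 barely above P662. Its log2 difference was -0.36 (SE 0.43).

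Eif4g1, the main eIF4G scaffold, had 1077, 1086 and 756 CPM in old and 956, 808 and 654 CPM in young animals. The lowest old animal falls among the young. Its log2 difference of 0.39 (SE 0.32, 95% interval -0.31 to 1.09) was the largest among the 11 tested, adjusted p = 0.998 in edgeR's test. Eif4g2, a related scaffold that lacks the eIF4E-binding part, had 1063, 233 and 977 CPM in old and 765, 1132 and 794 CPM in young animals, and a difference of -0.04 (SE 0.45). Pabpc1, which binds the poly(A) tail and eIF4G, had 283, 310.4 and 321 CPM in old and 956, 647 and 279 CPM in young animals. P57 and P59 stand high on 5 and 8 counts, P60 lies with the old animals, and the difference was -0.21 (SE 0.39).

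The 2 eIF4A helicases were followed in fewer counts and were not tested. Eif4a1 had 28.3, 77.6 and 79.2 CPM in old and 0, 162 and 39.8 CPM in young animals, and Eif4a2 142, 155 and 166 CPM in old and 0, 485 and 156 CPM in young. In both the young animals spanned the whole old range. Eif4ebp1, a repressor that sequesters eIF4E, had 0, 77.6 and 11.2 CPM in old and 0, 0 and 11.3 CPM in young animals, where the 77.6 of P722 is 1 count and the 2 deep animals are alike. Among the eIF3 core, Eif3a had 666, 854 and 704 CPM in old and 765, 404 and 768 CPM in young, Eif3b 369, 310.4 and 298 against 382, 162 and 272, and Eif3c 454, 310.4 and 387 against 574, 162 and 426. P59 was the lowest animal in all 3, with 5, 2 and 2 counts, and the other animals were mixed. The fitted differences were 0.16 (SE 0.34), 0.29 (SE 0.29) and 0.05 (SE 0.35). Eif3l had 269, 310.4 and 239.8 CPM in old and 382, 243 and 203 CPM in young animals, mixed in order, and a difference of 0.28 (SE 0.29).

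In the steps around the ribosomal subunits, Eif5b, the GTPase that joins the ribosomal subunits, had 156, 155 and 211 CPM in old and 191, 566 and 205 CPM in young animals, P59 standing apart on 7 counts. Eif6, which keeps the large subunit free, had 142, 155 and 147 CPM in old and 0, 243 and 134 CPM in young animals, and Eif5, the GTPase activator of eIF2, 241, 0 and 174 against 382, 162 and 164. The old and young ranges overlap in all 3, and none of the 8 genes of this group passed the filter. Eef1a1, the tRNA carrier, had 765, 543 and 647 CPM in old and 574, 566 and 538 CPM in young animals, means of 652 ± 111 and 559 ± 18.7 (SD, n = 3 each). P722 lies among the young animals and the other old animals above them, with a fitted difference of 0.32 (SE 0.32). Eef1b2, an exchange factor of eEF1A, spread from 113 to 621 CPM among the old animals alone. Eif5a had 227, 155 and 207 CPM in old and 191, 243 and 164 CPM in young animals, mixed in order, and Tpt1 99.2, 77.6 and 99.3 CPM in old and 0, 80.8 and 63.8 CPM in young, of which P722 and P59 had 1 count each. Etf1 had 184, 310.4 and 188 CPM in old and 765, 162 and 157 CPM in young animals. The factors without values above (Eif1, Eif1ax, Eif2s1, Eif2s2, Eif3d to Eif3i, Eif3k to Eif3m, Eif4h, Eif4ebp2 and Eef1d) had from 109 (Eif2s2) to 731 (Eif4h) counts over the 6 animals, and their old and young ranges overlap.

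**Figure D2:**
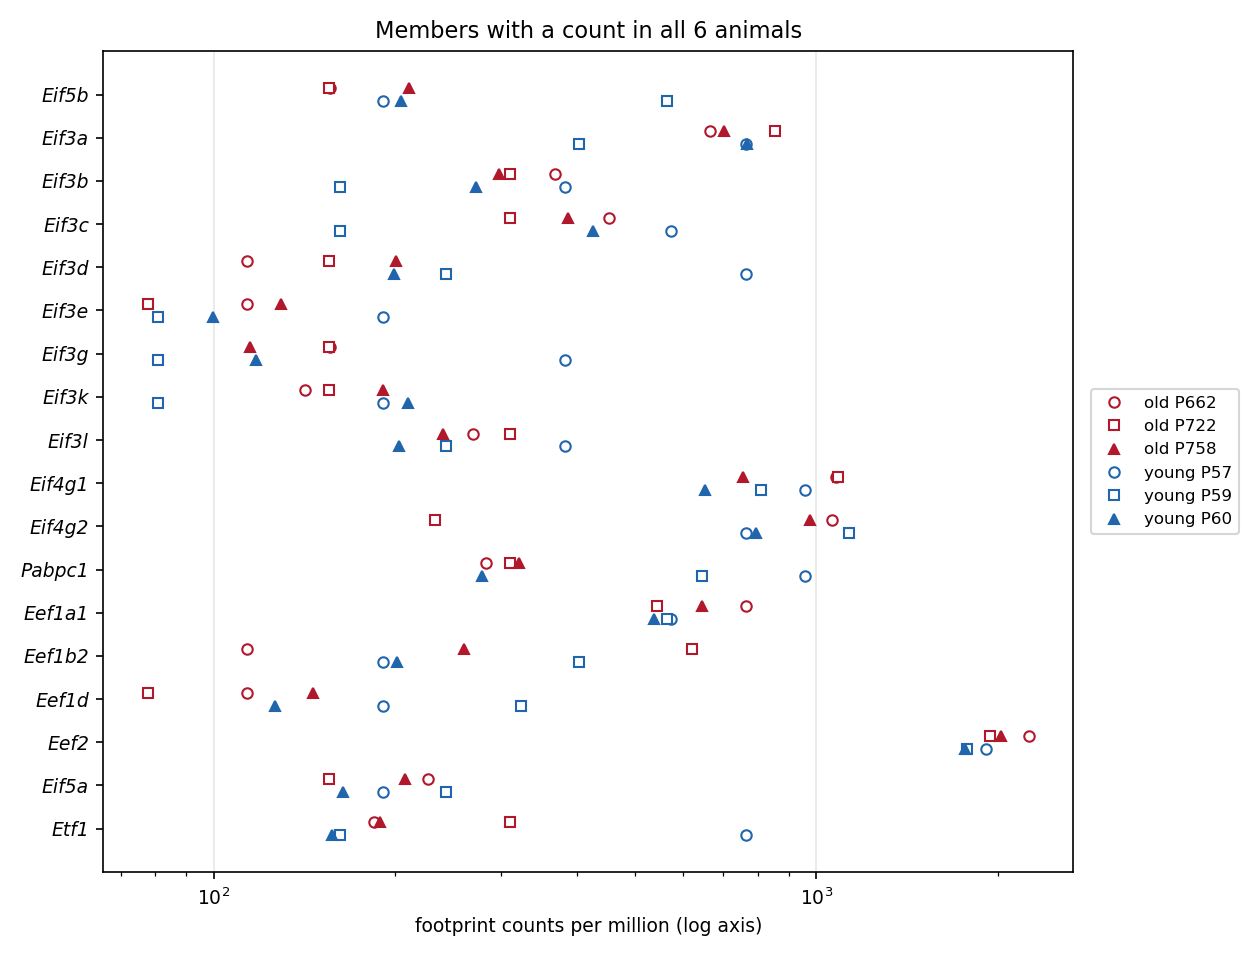
Footprint level in CPM (log axis) of the 18 factors with a count in all 6 animals, old animals in red and young in blue, each animal with its own mark. The filled triangles are the deeply sequenced P758 and P60, and in most genes the open marks of the shallow animals spread to both sides of them. For Eef2 the 3 old animals, from 1940.1 to 2254 CPM, lie above the 3 young, from 1763 to 1912 CPM.

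Within the basal class 5 animals had enough wells (P57 had 1 basal well). Of 423 genes tested 0 (0%) were called by edgeR and 0 by DESeq2, with 9 at an unadjusted p under 0.05 in edgeR, and 0 of 7 tested factors were called (median log2 difference 0.15 against 0.02 over all tested genes). Eif4g1 had 889, 1160.3 and 693 CPM in basal wells of P662, P722 and P758 and 639.6 and 632 CPM in those of P59 and P60, so the old animals were higher without overlap, P758 by a small margin. The difference was 0.33 (SE 0.42), adjusted p = 0.991 in edgeR's test. Eef2 had 1979, 1934 and 2246 CPM in old and 2239 and 1827 CPM in young basal wells, mixed in order, and a difference of -0.01 (SE 0.47). The Eef2 value turned positive without P662 (0.10) and without P722 (0.33). Eef1a1 had 1050.1, 774 and 629 CPM in old and 1119 and 520.4 CPM in young basal wells, with the young animals at either end, and its difference of 0.24 (SE 0.48) turned to -0.51 without P60. Eif4g2 (0.21, SE 0.51), Eif3a (0.15, SE 0.45) and Eif3c (0.11, SE 0.45) were positive by less than their errors, and each turned negative without P59. The clusters that form the basal class were not mixed alike in the animals. A basal cluster led by Igfbp3, low in Eef2 and described below, held 11.1% of all wells in P60, 4.63% in P758 and 0.503% in P662. It held no well of P59 or P722. The part of this mix in the age differences was not tested.

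Within the spinous class 681 genes were tested and 1 (0.147%) was called, Cyp51, an enzyme of cholesterol synthesis. Of 10 tested factors 0 were called (median 0.15 against 0.03). Eif4b had 264, 0 and 234 CPM in spinous wells of the old animals and 342 and 306 CPM in P59 and P60, the young again above the old, with a difference of -0.40 (SE 0.34). Eif3b had 439.5, 289 and 315 CPM in old and 0 and 265 CPM in young spinous wells, the old above the young, with a difference of 0.40 (SE 0.36). Eef2 differed by 0.29 (SE 0.40), Eef1a1 by 0.27 (SE 0.47) and Eif4g1 by 0.21 (SE 0.45), all 5 at adjusted p = 1.00 in edgeR's test. Without P59 the Eef2 and Eef1a1 values were -0.19 and -0.11. Calls of other genes depended on single shallow animals, 16 genes being called without P59 and 15 without P722, none of them among these factors.

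Spinous and basal wells of the same animals were compared next, with the animal as a block, in 5 animals. No factor changed by the test: of 934 tested genes 400 (42.8%) were called, 19.4% higher and 23.4% lower in spinous wells, and 0 of 12 tested factors, with 1 at an unadjusted p under 0.05 and 0 by DESeq2. Their median log2 difference was 0.04, against -0.03 over all tested genes. Initiation members tested were 5 higher and 3 lower by sign, elongation members 2 and 2.

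Eif4g1 had 639.6, 632, 889, 1160.3 and 693 CPM in basal wells of P59, P60, P662, P722 and P758, and 1366, 841, 1143, 1447 and 912 CPM in their spinous wells. It was higher in spinous wells in 5 of 5 animals, although P59 and P722 rest on few counts. The difference was 0.45 on the log2 scale (SE 0.21, 95% interval 0.05 to 0.85), adjusted p = 0.0629 in edgeR's quasi-likelihood test. The gene was called in 9 of 17 alternative settings, where its adjusted p ran from 0.0034 to 0.55. Eif5b had 479.7, 199, 202, 0 and 183 CPM in basal and 342, 246, 117, 289 and 263 CPM in spinous wells of the same animals, higher in 3 of 5. It differed by 0.41 (SE 0.23), adjusted p = 0.146 in edgeR's test, and was called in 3 of 12 settings. Eif5a did not pass the filter, having 145, 186 and 323 CPM in basal and 244, 263 and 234 CPM in spinous wells of P60, P758 and P662. It was higher in spinous wells in the 2 deep animals and lower in P662, and with no filter on low counts it was called at 0.77 (adjusted p = 0.0085).

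Eef2 had 2239, 1827, 1979, 1934 and 2246 CPM in basal and 1025, 1689, 2080.2, 1447 and 1830.2 CPM in spinous wells of P59, P60, P662, P722 and P758. It was lower in spinous wells in 4 of 5 animals, by less than the error: -0.17 (SE 0.19, 95% interval -0.55 to 0.20), and the sign turned without P59 (0.055). Eef1a1 differed by -0.02 (SE 0.21, 95% interval -0.44 to 0.40), with 1119, 520.4, 1050.1, 774 and 629 CPM in basal and 0, 576, 645, 289 and 685 CPM in spinous wells of the same animals, higher in the 2 deep animals and lower in the others, and its sign turned in several settings. Pabpc1 had 319.8, 290.2, 404, 387 and 339 CPM in basal and 683, 253, 146, 289 and 249.9 CPM in spinous wells, lower there in 4 of 5 animals, with a difference of -0.29 (SE 0.21). Eif4b was lower in spinous wells in the 4 animals with a count, by -0.23 (SE 0.21).

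Among 50 further translation genes, 6 were tested and 2 were called, both higher in spinous wells, a share below the 42.8% of all tested genes. DESeq2 called Eef2k alone. Eef2k, the kinase that phosphorylates eEF2 and slows elongation, had 159.9, 118, 162, 193 and 165 CPM in basal and 342, 353, 469, 289 and 321 CPM in spinous wells of P59, P60, P662, P722 and P758. It was higher in spinous wells in 5 of 5 animals, although P59 and P722 rest on 1 count each. The difference was 1.40 (SE 0.22, 95% interval 0.96 to 1.84), adjusted p = 3.4e-09 in edgeR's test, and it was called in 13 of 13 alternatives. Pdcd4, a protein that binds and blocks eIF4A, had 159.9, 328, 202, 0 and 278 CPM in basal and 342, 476, 469, 579 and 412 CPM in spinous wells. It too was higher in 5 of 5 animals, although P59 and P722 again rest on very few counts. The difference was 0.69 (SE 0.22), adjusted p = 0.0049 in edgeR's test, and it was called in 13 of 15 alternatives. Of their targets, Eef2 is given above, and Eif4a2 differed by 0.048 (SE 0.25, 95% interval -0.44 to 0.54). Eif4a1, the other eIF4A, did not pass the filter, having 319.8, 61.0, 40.4, 193 and 104 CPM in basal and 0, 28.1, 29.3, 0 and 84.4 CPM in spinous wells of P59, P60, P662, P722 and P758. It was lower in spinous wells in 5 of 5 animals, on 1 or 2 basal counts in the 3 shallow ones, and with no filter on low counts the difference was -0.54 (SE 0.33), adjusted p = 0.506 in edgeR's test.

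**Figure D3:**
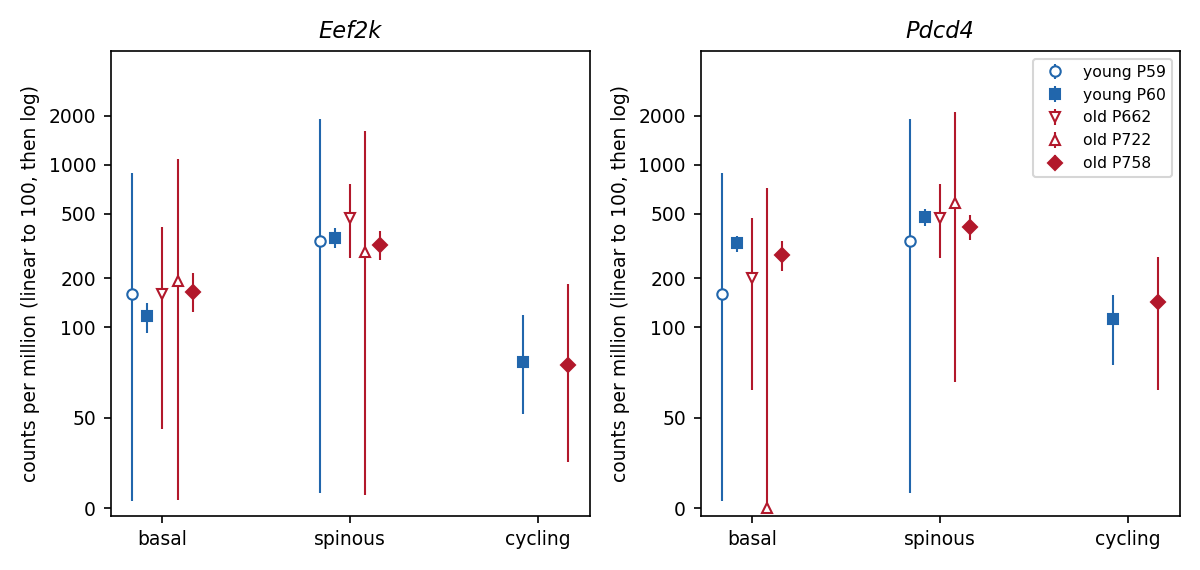
Footprint level in CPM of Eef2k and Pdcd4 in basal, spinous and cycling wells, each kind of mark an animal. Spinous values lie above basal values in all 5 animals, and in the 2 animals with enough cycling wells, P60 and P758, Pdcd4 falls to 113 and 143 CPM there.

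Cycling wells, defined by mitotic and histone genes, could be set against basal wells in P60 (45 wells) and P758 (18 wells), a young and an old animal. Of 6097 genes 1389 (22.8%) were called, 13.6% higher and 9.18% lower in cycling wells, and 2 of the 34 tested factors, 1 in each direction. The factors' median was -0.11, against -0.02 over all tested genes. Signs were mixed in eIF3 (8 of 12 positive), and mostly negative in the eIF1, eIF2, eIF5 and eIF6 group (1 of 7 positive) and the eIF4 group (2 of 8 positive). Cycling wells were deeper, at a median of 2545 counts against 1074 in basal wells, and the part of depth in these differences was not tested beyond a fit to wells of 500 to 3000 counts.

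Eif3k, a peripheral eIF3 subunit, had 202 and 192 CPM in basal and 292 and 206 CPM in cycling wells of P60 and P758. It was higher in both animals but hardly so in P758, with a difference of 0.66 (SE 0.24), adjusted p = 0.0305 in edgeR's test. It was called in 4 of 11 alternatives, and among wells of 500 to 3000 counts the difference was -0.22. Eif1, which guards the choice of the start codon, had 70.4 and 85.4 CPM in basal and 22.7 and 31.7 CPM in cycling wells, lower in both animals, on 7 and 2 cycling counts. Its difference was -1.34 (SE 0.51), adjusted p = 0.0434, called in 6 of 10 alternatives. DESeq2 called neither gene.

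Eef2 had 1827 and 2246 CPM in basal and 1349 and 1125 CPM in cycling wells of P60 and P758. It was lower in cycling wells in both, by -0.45 (SE 0.20, 95% interval -0.85 to -0.06), adjusted p = 0.0913, and was called in 2 of 11 alternatives. Eef1a1 had 520.4 and 629 CPM in basal and 409 and 253 CPM in cycling wells, with a difference of -0.41 (SE 0.21), adjusted p = 0.165. Eif3c, a core eIF3 subunit, went from 395 to 483 CPM in P60 and from 342 to 317 CPM in P758, with a difference of 0.41 (SE 0.21). Eif4ebp2, another eIF4E repressor, went from 58.9 to 19.5 CPM and from 39.7 to 15.8 CPM on 6 and 1 cycling counts, lower in both animals, by -1.30 (SE 0.60). Neither passed the test. Pabpc1 moved in opposite ways in the 2 animals, from 290.2 to 246 CPM in P60 and from 339 to 412 CPM in P758. Tpt1 was at 75.7 and 74.6 CPM in P60 and at 137 and 143 CPM in P758. Eif4a1 had 61.0 and 104 CPM in basal and 42.1 and 0 CPM in cycling wells, where the 0 of P758 allows up to 58.4 CPM by the exact 95% Poisson interval, which covers counting error only.

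Among the 50 further translation genes 33 were tested in this comparison, 0 were higher and 5 lower in cycling wells. Of all tested genes 13.6% were higher and 9.18% lower. Pdcd4 fell from 328 to 113 CPM in P60 and from 278 to 143 CPM in P758, a difference of -1.14 (SE 0.27), adjusted p = 0.000234 in edgeR's test. Eif2a, an initiation factor distinct from the eIF2 complex, fell from 769 to 363 CPM and from 1449 to 713 CPM, by -0.82 (SE 0.22). Mknk2, the kinase of eIF4E, changed by -1.17 (SE 0.36), Rack1 by -0.66 (SE 0.22) and Rptor, the scaffold of mTORC1, by -1.23 (SE 0.45). Pdcd4 was called in 10 of 11 alternatives and the other 4 genes in 5 to 9 of 11.

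**Figure D4:**
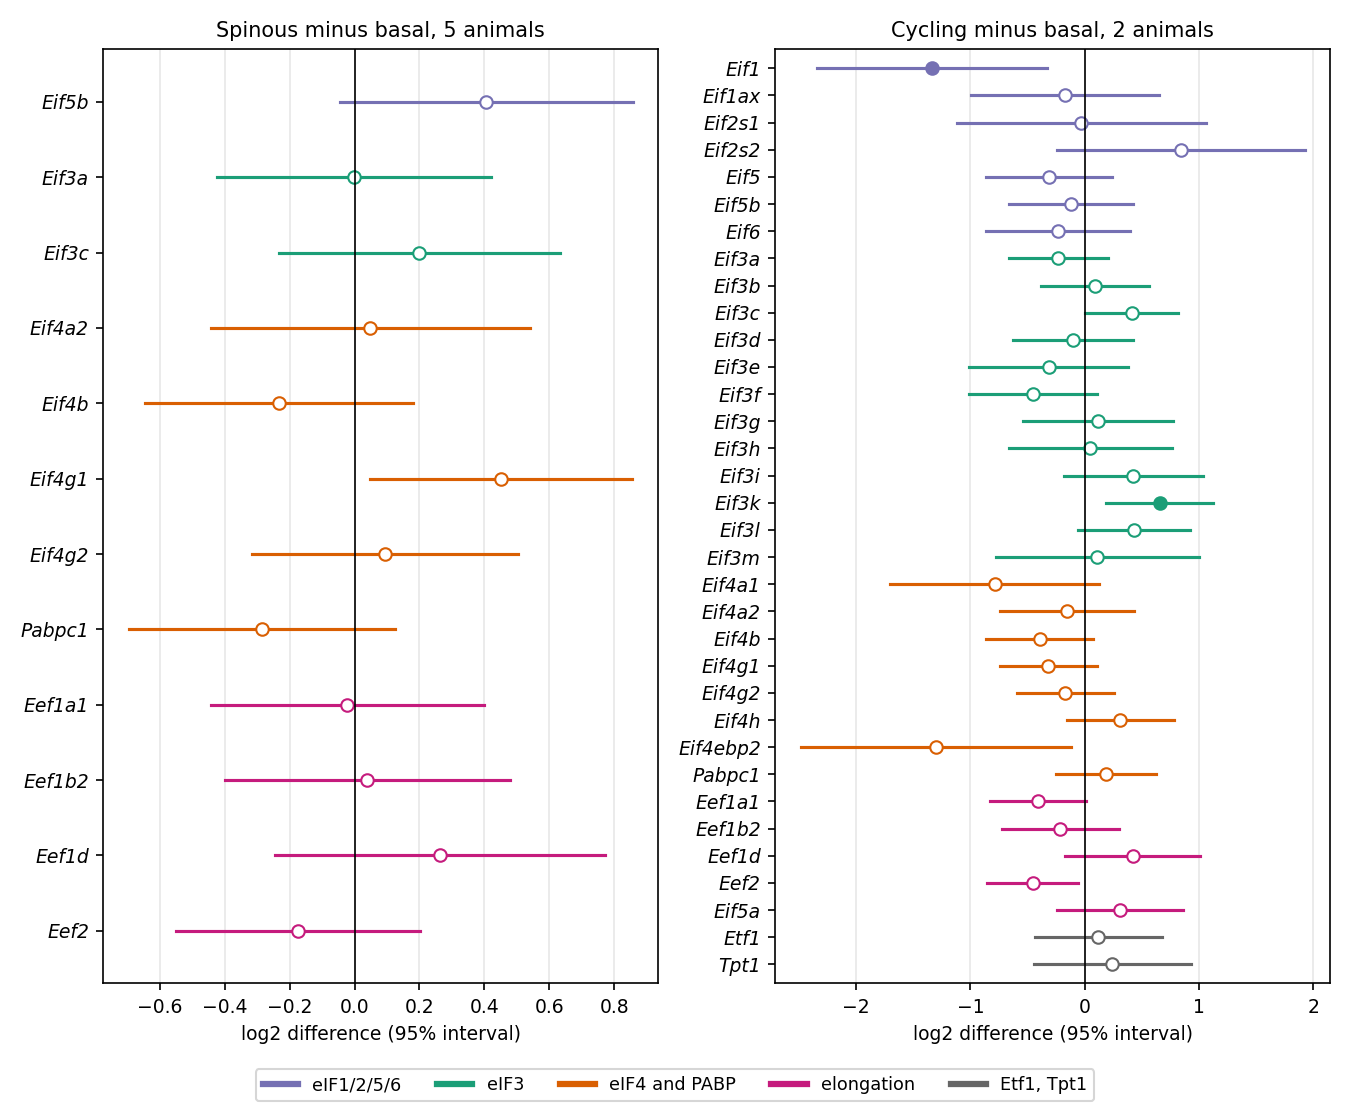
Log2 difference with its 95% interval for each tested factor, spinous minus basal wells in 5 animals on the left and cycling minus basal wells in 2 animals on the right, coloured by role. Filled points passed an adjusted p of 0.05 in edgeR's test: none on the left, and Eif1 (-1.34) and Eif3k (0.66) on the right.

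More of these genes were called between clusters of basal wells than between the classes. This comparison was chosen after the data were seen. It sets wells of a cluster led by Igfbp3, Ctsl and Smoc2 against wells of a cluster led by Hivep3, Adamtsl5 and Ptprz1, both of the basal class, in P60 (109 against 82 wells) and P758 (29 against 32 wells). The clusters were built without the 38 factors, the 50 further genes and the ribosomal protein genes, but from other genes of the same wells, so the p-values describe a contrast between groups made from these wells. Of 3140 genes 973 (31.0%) were called, 15.8% higher and 15.2% lower in the Igfbp3-led wells, and 12 of 27 tested factors, 5 higher and 7 lower, with a median of 0.10 against 0.02 over all tested genes. Elongation factors were lower in 3 of 5 tested and higher in 1, eIF4-group genes lower in 3 and higher in 1 of 6, and eIF3 subunits lower in 1 and higher in 2 of 11.

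The TOP list and the other factors are given apart. Of the 12 genes on the list 10 were tested, 6 were lower and 0 higher in Igfbp3-led wells, with a median log2 difference of -0.94. Of the other 26 factors 17 were tested, 5 were higher and 1 lower, with a median of 0.45. Ribosomal protein genes, the largest family of TOP mRNAs, were lower in 7 of 16 tested and higher in 0, with a median of -0.60. No test was made of the lists themselves.

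Eef2 had 3234 and 3319 CPM in Hivep3-led wells of P60 and P758 and 1267 and 1130.0 CPM in Igfbp3-led wells. Summed per cluster and plate, Eef2 was lower in Igfbp3-led wells in 5 of 5 plates. These plates come from the same animals and are not further replicates. The share of all genes with the same direction in every plate was not computed. Hivep3-led against Igfbp3-led wells had 3091 against 1323 CPM in Young1, 3546 against 1114 in Young3 and 2449 against 1443 in Young9. On the old plates Eef2 had 3079 against 1011 CPM in Old2 and 3477 against 1183 in Old4. The difference was -1.29 (SE 0.16, 95% interval -1.61 to -0.97), adjusted p = 5.5e-06 in edgeR's quasi-likelihood test, and it was called in 8 of 8 alternatives. Eef1a1 had 1035 and 1066 CPM in Hivep3-led and 336 and 334 CPM in Igfbp3-led wells, lower in 5 of 5 plates, by -1.49 (SE 0.20), adjusted p = 1.7e-05. Its level in the Igfbp3-led wells was nearly the same in the young and the old animal.

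Pabpc1 had 564 and 454 CPM in Hivep3-led and 178 and 204 CPM in Igfbp3-led wells of P60 and P758, a difference of -1.39 (SE 0.23), adjusted p = 0.000158 in edgeR's test. Eif3f, an eIF3 subunit, had 355 and 332 CPM against 123 and 118 CPM, by -1.37 (SE 0.27), and was the only eIF3 subunit called lower. Eif4b had 553 and 559 CPM against 243 and 279.8 CPM, by -0.99 (SE 0.21). Each was lower in Igfbp3-led wells in 5 of 5 plates. Eef1b2 had 285 and 437 CPM against 151 and 172 CPM, also lower in 5 of 5 plates, by -0.90 (SE 0.26). Of the TOP list, Eif3a (0.28), Eif3e (0.10), Eif3h (-0.46) and Eef1d (-0.24) were not called. Start windows with a pyrimidine run belong to Eef1a1, Eif3f and Eif4b, which were lower, but those of Eef2 and Eef1b2, lower too, hold none. The windows of Eif3l, Eif4g1 and Eif3b, outside the TOP list, also hold a run, and these factors were tested and not called.

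The factors that rose in Igfbp3-led wells were Eif4h, a cofactor of eIF4A, Eif5a, the eIF3 subunits Eif3d and Eif3i, and Etf1. Eif4h had 116 and 175 CPM in Hivep3-led and 247 and 291 CPM in Igfbp3-led wells of P60 and P758, by 1.12 (SE 0.30), adjusted p = 0.0077 in edgeR's test. Eif5a had 93.1 and 139.8 CPM against 183 and 237 CPM, by 1.05 (SE 0.32), adjusted p = 0.0178. Eif3d, the eIF3 subunit that can bind the cap, had 163 and 139.8 CPM against 254 and 301 CPM, by 0.90 (SE 0.28). Each of these 5 was higher in 5 of 5 plates. Thus 2 elongation factors went opposite ways, Eef2 down and Eif5a up, as did the helicase cofactors Eif4b and Eif4h and the eIF3 subunits Eif3f and Eif3d. Eif4g2 was the factor outside the TOP list that was lower, with 971 and 1240.3 CPM against 653 and 732 CPM.

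Of the 50 further translation genes 18 were tested here, with 6 lower and 1 higher in Igfbp3-led wells. Over all tested genes 15.2% were lower and 15.8% higher. Rack1, whose start window holds a long pyrimidine run, had 1483 and 1258 CPM in Hivep3-led and 494 and 527 CPM in Igfbp3-led wells of P60 and P758, by -1.33 (SE 0.19), adjusted p = 4.4e-05 in edgeR's test. Eif2a changed by -1.15 (SE 0.20) and Eif4g3, the third eIF4G scaffold, by -0.90 (SE 0.29). Rptor changed by -1.24 (SE 0.39), Mtor, the kinase it serves, by -0.89 (SE 0.30), and Larp1, the TOP-binding repressor under its control, by -0.82 (SE 0.28). Pdcd4 was the gene that rose, from 238 to 381 CPM in P60 and from 192 to 323 CPM in P758, by 0.84 (SE 0.24). In wells of 500 to 3000 counts 5 of the 50 genes were tested and 0 called in edgeR's test, among them Rack1 at -0.93 (adjusted p = 0.072) and Eif2a at -0.48 (adjusted p = 0.381). Over wells of every depth DESeq2 called Rack1 and Eif2a.

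The clusters also differ in depth and in mitochondrial footprints. Mitochondrial genes were not kept out of the clustering, and mt-Nd2 is among the leading genes of the Hivep3-led cluster. Igfbp3-led wells had medians of 4802 counts in P60 and 3218 in P758, and Hivep3-led wells 1828.5 and 1165. Mitochondrially encoded genes took 0.128 and 0.176% of counts in Igfbp3-led wells and 0.767 and 0.999% in Hivep3-led wells, and the part of this in the differences was not tested. In wells of 500 to 3000 counts only, 88 genes were called instead of 973, and of the factors Eef2 (-0.98, adjusted p = 0.003) and Eif3f (-1.44, adjusted p = 0.0385) in edgeR's test. Eef1a1 was -0.99 there (adjusted p = 0.087), Pabpc1 fell short at -0.30 and Eif4b at -0.41. Eef2, Eif3f, Eef1a1, Pabpc1 and Eif4b all kept their sign at this depth, while most calls were lost, and Eif4h, Eif5a and Eif3d did not pass the filter there. Of the 13 factors tested at this depth 11 were negative, with a median of -0.41 against 0.0002 over all tested genes. The limit left 26 of 109 Igfbp3-led wells in P60 and 11 of 29 in P758. Of the Hivep3-led wells 68 of 82 and 25 of 32 were left. DESeq2, run on wells of every depth only, called 102 genes and, of the factors, Eef2 and Eef1a1.

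**Figure D5:**
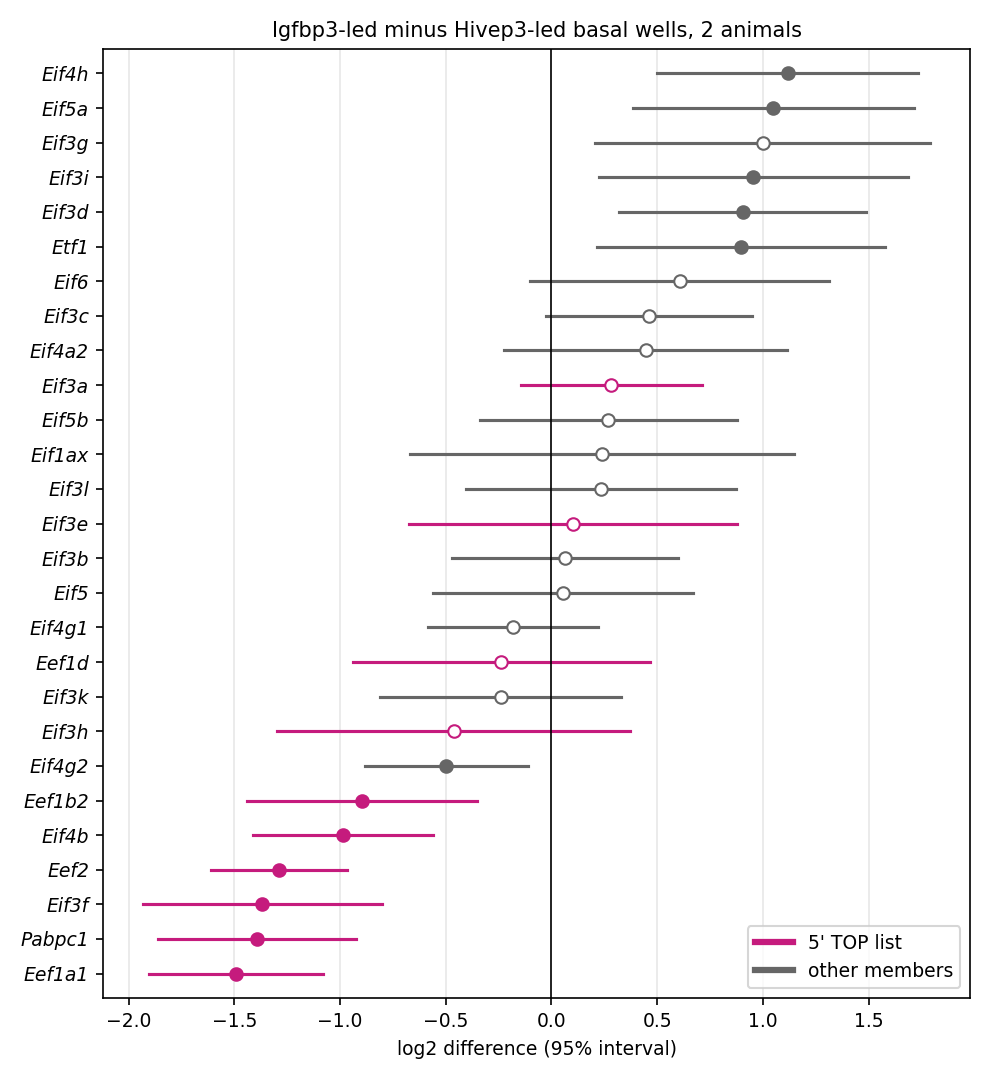
Log2 difference with its 95% interval for each tested factor, Igfbp3-led minus Hivep3-led basal wells, fitted over P60 and P758. Colours set the TOP list apart from the other factors. Eef2, Eef1a1, Pabpc1, Eif3f and Eif4b were lower in Igfbp3-led wells, and Eif4h, Eif5a and Eif3d were higher.

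As shares of all counts, elongation factors took 0.483% in Hivep3-led and 0.205% in Igfbp3-led wells of P60, and 0.508 and 0.20% in P758. The eIF3 subunits took 0.287 and 0.273% in P60 and 0.236 and 0.270% in P758, lower in the former animal and higher in the latter. Elongation counts per 100 initiation counts were 72.2 and 36.6 in P60 and 76.4 and 33.9 in P758, a wider gap than that between old and young animals. In wells of 500 to 3000 counts the elongation share was 0.450 and 0.269% in P60 and 0.512 and 0.223% in P758. Over wells of every depth, the TOP list took 0.736 and 0.346% in P60 and 0.706 and 0.335% in P758, whereas the other factors took 0.435 and 0.444% in P60 and 0.482 and 0.478% in P758. In wells of 500 to 3000 counts the TOP list took 0.698 and 0.436% in P60 and 0.717 and 0.409% in P758, and the other factors 0.418 and 0.449% in P60 and 0.444 and 0.533% in P758.

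A like split ran through the spinous wells, given here as values without a test. The cluster led by Skint6 and the cluster led by Krt1 and Krt10 had 55.0 and 40.4 elongation counts per 100 initiation counts in P60, and 60.0 and 43.4 in P758. The TOP list took 0.622 and 0.350% of counts in P60 and 0.556 and 0.441% in P758. Eef2 had 2528 CPM in Skint6-led and 1281 CPM in Krt1-led wells of P60, and 2452 and 1647 CPM in those of P758. Eif5a ran the other way, with 129 and 300.1 CPM in P60 and 114 and 307 CPM in P758. Mitochondrially encoded genes again moved with the TOP list, at 0.641 and 0.135% in P60 and 0.741 and 0.321% in P758. Krt1-led wells were also deeper, with medians of 3751 counts in P60 and 2016 in P758 against 1687 and 1001.5 in Skint6-led wells. The part of either was not tested beyond a limit to wells of 500 to 3000 counts, where the ratio was 54.6 and 37.5 in P60 and 63.6 and 48.2 in P758. Summed over whole classes the ratio was 46.3 in basal, 45.8 in spinous and 42.8 in cycling wells of P60, and 54.6, 46.9 and 40.4 in those of P758. In both animals the clusters within the basal class, and those within the spinous class, thus lay farther apart in this ratio than the classes did.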

How the data were processed

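Ribosome footprints of sorted epidermal cells were deposited by the authors as raw counts per gene and well, 1 table for each plate; the submitters' processing notes list fastp, Bowtie2, STAR, UMI-tools, featureCounts and GRCm38.p6, and no versions. Wells with at least 100 counts were kept. Counts were summed per animal, or per animal and class, and tested with edgeR 4.0.16 in R 4.3.3 (filterByExpr, TMM, quasi-likelihood, Benjamini-Hochberg over all tested genes at 0.05), with the animal as a block between classes of the same animals and at least 5 wells per animal and class. P-values rest on the spread between these animals, with variance estimates shared across the tested genes by edgeR. The cycling and basal-cluster fits held 4 summed libraries from P60 and P758. Their p-values rest mostly on the variance shared across genes, not on a gene's own spread. Wells were clustered with scanpy 1.11.5 (1500 variable genes, 15 components, 15 neighbours, Leiden resolution 1), leaving out 174 translation and ribosomal protein genes. A cluster was named from at least 3 markers and a mean marker score of at least 0.2, a limit set after the clusters were seen. The basal class includes 257 wells of a cluster near that limit, at 10.4 to 34.2% of wells in P758, P60, P662, P59 and P722. Unnamed clusters held 18.3% of wells in P60, 18.7% in P758 and at most 4.17% in the others. No doublet caller was run, since each well received a sorted cell. CPM are counts per 1000000 counts of the summed wells. Intervals of shares, ratios and CPM cover counting error only.

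The members and gene lists were chosen with earlier results of these data known. The genes named were, per comparison, up to 10 called members or, with fewer than 5 called, the 5 with the smallest p, plus Eef1a1, Eef2, Eif4a1, Eif4ebp1, Pabpc1 and Tpt1, and up to 8 called genes of the 50 further translation genes; other members were chosen after their values were seen, to show each role. Alternatives were DESeq2 1.42.0, limma-voom (limma 3.58.1), other filters, scalings, blocks, class definitions and depths, and leaving out each animal. Statistics were tested on simulated data. The age tests recovered 14% of 2-fold changes over all wells, 0% in basal and 14% in spinous wells. Of 4-fold changes they recovered 93.5, 92 and 98.5%. With no change simulated they called 1, 3 and 1 genes. Recovery of 2-fold changes was 99.5% for spinous, 32.5% for cycling and 60% for Igfbp3-led wells. An uncalled age difference is thus weak evidence against a 2-fold change. Wells of the Sca-1-negative plate could not be tied to an age, nor those of the nuclease plate to an enzyme. Levels per coding length were planned but not computed, since coding lengths were not used here.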

Additional observations from a re-analysis of the deposited data

Results flagged for a closer look

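On the P59 plate Young8 the genes of the eIF1, eIF2, eIF5 and eIF6 group took 0.146% of counts and stood apart from the other young plates. Of 14 groups of plates checked in this way, chance would mark about 1 in 20 groups, and the plate is shallow.

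The nuclease test plate, which entered no comparison, lay above both ordinary P758 plates in some totals and not in others. Initiation factors took 0.729% of its 128007 counts (95% exact binomial interval 0.683 to 0.777%). Elongation factors took 0.659% (0.615 to 0.704%), against 0.318 and 0.339% on the P758 plates, and the ratio was 90.4 elongation counts per 100 initiation counts (82.2 to 99.3), against 50.7 and 52.8. The TOP list took 0.902% (0.850 to 0.955%) and ribosomal protein genes 0.965% (0.912 to 1.02%). The factors outside the TOP list took 0.509%, against 0.512 and 0.498% on the P758 plates, and the eIF1, eIF2, eIF5 and eIF6 group 0.0648%, below their 0.0841 and 0.0743%. Eif5a took 0.0172%, also below both. Mitochondrially encoded genes took 1.26% of its counts, against 0.319 and 0.546%. Wells of this plate received different ribonucleases at different concentrations, and the part of the digestion in these values was not tested.

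Eef1d, an exchange factor of eEF1A, was higher in spinous than in basal wells in every old animal and lower in every young animal, out of 12 tested factors checked for such a split. It had 80.8, 0 and 122 CPM in basal and 176, 289 and 165 CPM in spinous wells of P662, P722 and P758, and 479.7 and 134 CPM in basal and 342 and 132 CPM in spinous wells of P59 and P60. The mean log2 differences, with 10 CPM added, were apart by 2.36, and the basal value of P722 among them is 0. The difference between the ages was not tested.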

How the results depend on the processing

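Counts in the age comparisons rested on the filter. Over all wells 0 genes were called in the fit as designed, 111 with every counted gene kept and 45 when a mean of 20 CPM was required. In basal wells 0 were called, against 35, 9 and, with a naming score of 0.25, 31, and from 0 to 18 with 1 animal left out (18 without P722). In spinous wells 1 was called, against 8, 9 and 0 by DESeq2, and from 0 to 16 with 1 animal left out. No factor was called in any of these. Between spinous and basal wells the 0 called of 12 tested factors became 2 of 38 with no filter and 2 of 36 at 20 CPM. They became 1 of 12 without keratin and mitochondrial genes, 3 of 32 with plates as blocks and 1 of 11 at resolution 0.5. Classes set by keratins gave 5 of 31, and a naming score of 0.25 gave 2 of 32. With 1 animal left out 0 to 4 were called (4 of 33 without P59). In each of these settings the share of factors called was below that of all tested genes. The 400 called genes (42.8% of 934) became 1367 (9.45% of 14468) with no filter and 1291 (20.2% of 6379) at 20 CPM. They became 1475 (30.8%) with plates as blocks, 1534 (32.0%) with keratin classes and 1207 (27.2%) at the naming score. In wells of 500 to 3000 counts 606 (14.1%) were called, and with no block 135 (33.9%). With 1 animal left out the number ran from 117 (39.5%, without P758) to 1342 (28.7%, without P59). Between cycling and basal wells the 2 called factors became 0 under DESeq2, no filter, no block, without clusters led by immediate early genes and at 500 to 3000 counts. The 1389 genes (22.8%) became 352 (5.77%) by DESeq2, 867 (14.2%) with no block and 308 (9.47%) at 500 to 3000 counts. Between the basal clusters the 12 called of 27 tested factors became 2 of 27 by DESeq2 and 2 of 13 at 500 to 3000 counts. The 973 genes (31.0%) became 102 (3.25%) by DESeq2, 642 (20.4%) with no block and 88 (10.9%) at 500 to 3000 counts.

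Signs turned as follows, and the cause was not tested. In the age comparison of basal wells, leaving out the cluster led by immediate early genes gave Eef1a1 -0.25, Eif4g2 -0.000106 and Eif3a -0.14. Eef2 there became 0.019 by DESeq2, 0.017 with its size factors, 0.087 with no filter, 0.084 at 20 CPM and 0.45 at the naming score. Between spinous and basal wells Eef1a1 became 0.14 with no filter, 0.13 at 20 CPM and with plates as blocks, 0.039 without keratin and mitochondrial genes, 0.10 without that cluster, 0.43 with keratin classes, and 0.22 both at the naming score and at 500 to 3000 counts. Eef2 became 0.22, 0.070 and 0.13 with the last 3 of these, and Eef1d -0.10 at 500 to 3000 counts. At that depth Eif3k (-0.22), Pabpc1 (-0.41), Tpt1 (-0.36) and Rptor (0.37) also turned in cycling wells. With 1 animal left out, age differences in basal wells ran from -0.51 to 0.45 for Eef1a1, from -0.12 to 0.61 for Eif4g2, from -0.36 to 2.25 for Eif3a, from -0.15 to 0.18 for Eif3c and from -0.18 to 0.33 for Eef2. In spinous wells they ran from -0.19 to 1.75 for Eef2 and from -0.11 to 8.73 for Eef1a1, whose highest value sets the old animals against P59 alone, with 0 counts. Between spinous and basal wells Eef1a1 ran from -0.38 to 0.23 and Eef2 from -0.21 to 0.055. All 70 alternative values of the 6 named factors in the age comparison over all wells kept their sign and stayed uncalled. Of 128 values of the 17 named genes between the basal clusters 0 turned and 31 lost their call. Under the alternatives the age differences in the gene groups' shares moved by less than the spread between animals, but elongation factors went from touching to separate age groups without keratin and mitochondrial genes in the total, and with wells of every depth. Animals could not be left out where only 2 entered. No paired analysis was possible because the plate numbers of the old and young groups do not pair animals. P57, P59 and P722 limit every age value: 3 counts are worth 232.8 CPM in P722.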

Other observations

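The Sca-1-negative plate, sorted to enrich cells other than stem cells and mixed from a young and an old animal, gave 17377 counts in 52 wells. Initiation factors took 0.610% of them (95% exact binomial interval 0.50 to 0.737%) and elongation factors 0.219% (0.155 to 0.300%), or 35.8 elongation counts per 100 initiation counts (24.1 to 52.4). The interval of the ratio holds the values of all young animals and of P662 and P758, but not that of P722. Langerhans cell markers took 1.20% and T cell markers 0.121% of its counts, more than in any ungated animal, so this plate holds another mix of cells. Its values carry no age, since its wells were not tied to the animals.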
